A study of Mus musculus with 12 samples.

Results

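The matricellular and adhesive glycoproteins of the liver extracellular matrix were represented by 8 genes, Thbs1, Thbs2, Tnc, Postn, Sparc, Efemp1, Fn1 and Vtn. They were chosen by gene name, and each name stood once in the table of 21936 mouse genes. RNA had been sequenced from the livers of male C57BL/6 mice (C57BL/6J in the study's text), and 9 libraries in 3 groups of 3 were analysed. Mice in every group were 6 weeks old on arrival and had received carbon tetrachloride (CCl4), a hepatotoxin that leads to fibrosis, at 1 mL/kg intraperitoneally, 2 times per week over 8 weeks. Mice of the liver fibrosis group (LFG) were sacrificed then. Mice of the regression group (REG) were given 200 µl of PBS by the tail vein, 2 times per week during 4 further weeks. Mice of the hADMSCs-Exo group were given 250 µg of exosome protein in 200 µl of PBS on the same schedule, the exosomes being small vesicles released by cultured human adipose mesenchymal stem cells. LFG mice were thus killed 4 weeks earlier than the others, so age and time since the last CCl4 cannot be told apart from the groups, and no liver without CCl4 was analysed here.

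Matricellular proteins are secreted into the matrix but do not build its fibers. They bind collagens, growth factors and integrins, and they are known to be produced during wound healing and scarring, in the liver largely by activated hepatic stellate cells and portal fibroblasts. Fibronectin and vitronectin are adhesive glycoproteins that hepatocytes release into plasma in large amounts, although fibronectin is also made by mesenchymal cells of the scar.

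Total counts per library ranged from 13837445 to 19840917, and 13924 to 15248 genes had at least 1 count. LFG replicate 3 (LFG 3) had the fewest of both, and it stood apart from LFG 1 and LFG 2 in most of the genes described here. Markers moved with it. The summed level of 7 stellate cell markers, in CPM (counts scaled by library total and TMM normalization), was 129 and 131 in LFG 1 and LFG 2 and 29.8 in LFG 3. The sum of 6 macrophage markers was 602 and 454 CPM in LFG 1 and LFG 2 and 93.8 in LFG 3. The 5 hepatocyte markers summed to between 79301 and 164368 CPM over all 9 libraries, but single ones differed in LFG 3 in both directions. Apoa1 was at 4715 and 6764 CPM in LFG 1 and LFG 2 and 22547 in LFG 3. Cps1 was at 4086 and 5494 CPM in LFG 1 and LFG 2 and 1595 in LFG 3. The part of these markers in the low levels of LFG 3 was not tested. Each comparison with LFG is therefore given with and without LFG 3. Because LFG 3 was picked out partly by its low levels of the genes described here, leaving it out raises LFG in them by construction. Counts without LFG 3 are thus descriptions.

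The genes lie on different chromosomes, except that Sparc, Vtn and Efemp1 are all on chromosome 11, and all 8 are annotated as protein coding with the same start and end in GENCODE M21 (GRCm38). Thbs1 (ENSMUSG00000040152) is at chr2:118111876-118127133 on the plus strand. Thbs2 (ENSMUSG00000023885) is at chr17:14665500-14694235 on the minus strand. Tnc (ENSMUSG00000028364) is at chr4:63959785-64047015 on the minus strand. Postn (ENSMUSG00000027750) is at chr3:54361109-54391037 on the plus strand. Sparc (ENSMUSG00000018593) is at chr11:55394500-55423183 on the minus strand. Efemp1 (ENSMUSG00000020467) is at chr11:28853204-28926743 on the plus strand. Fn1 (ENSMUSG00000026193) is at chr1:71585520-71653200 on the minus strand, and with 17 annotated transcripts its gene count does not separate plasma from cellular fibronectin. Vtn (ENSMUSG00000017344) is at chr11:78499091-78502324 on the plus strand. Thbs1, Tnc and Fn1 each overlap 1 non-coding gene on the opposite strand (Gm29233, 8030451A03Rik and Apol7d). None of these stood in the table, and the use of strand in counting is not given in the sources used here, so reads of these partners may be included.

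The 250 bases upstream of the start were taken from RefSeq (GRCm38.p6), which held 6 of the 8 genes in the promoter table used. The sequences of Thbs2, Tnc, Postn and Sparc are shown because these genes differed most between hADMSCs-Exo and REG, and that of Vtn because its profile over the libraries was the farthest from theirs. They run 5′ to 3′ on the strand of the gene, and capitals mark matches on either strand to 4 short motifs, the TATA box (TATAAA), the SMAD box (CAGAC, read GTCTG on the other strand), the TEAD element (GGAATG) and the AP-1 element (TGANTCA).
Thbs2, chr17:14694263-14694512, minus strand: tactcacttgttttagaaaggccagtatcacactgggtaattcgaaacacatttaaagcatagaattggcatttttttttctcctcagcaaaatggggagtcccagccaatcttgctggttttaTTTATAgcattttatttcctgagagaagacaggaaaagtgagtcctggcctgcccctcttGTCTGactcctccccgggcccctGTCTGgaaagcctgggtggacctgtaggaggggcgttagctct
Tnc, chr4:64047016-64047265, minus strand: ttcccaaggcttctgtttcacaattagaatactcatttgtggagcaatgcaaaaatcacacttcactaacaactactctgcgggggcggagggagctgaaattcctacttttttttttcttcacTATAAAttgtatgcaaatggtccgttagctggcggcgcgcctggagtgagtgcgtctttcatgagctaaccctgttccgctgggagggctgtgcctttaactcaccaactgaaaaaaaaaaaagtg
Postn, chr3:54360857-54361106, plus strand: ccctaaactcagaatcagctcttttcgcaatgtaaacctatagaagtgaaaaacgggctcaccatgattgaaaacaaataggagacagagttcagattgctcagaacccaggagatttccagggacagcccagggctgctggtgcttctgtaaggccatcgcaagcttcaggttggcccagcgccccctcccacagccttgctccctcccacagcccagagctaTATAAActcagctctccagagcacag
Sparc, chr11:55420081-55420330, minus strand: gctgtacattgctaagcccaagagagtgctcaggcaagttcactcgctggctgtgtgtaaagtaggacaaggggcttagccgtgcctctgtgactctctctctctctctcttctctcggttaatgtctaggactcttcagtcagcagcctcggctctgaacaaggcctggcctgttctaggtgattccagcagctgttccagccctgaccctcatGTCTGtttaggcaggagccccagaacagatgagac
Vtn, chr11:78498870-78499119, plus strand: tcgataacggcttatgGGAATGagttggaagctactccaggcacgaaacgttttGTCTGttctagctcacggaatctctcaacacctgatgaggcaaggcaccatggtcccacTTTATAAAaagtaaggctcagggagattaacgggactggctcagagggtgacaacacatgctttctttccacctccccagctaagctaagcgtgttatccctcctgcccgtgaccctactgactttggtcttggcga
Postn held TATAAA from base -26 to -21 before the start, while Tnc held it at -126 and Thbs2 held its reverse complement at -126. Vtn held matches on both strands at -137 and -135, which overlap and share letters. Thbs2 held the SMAD box letters on the other strand at -66 and -43, Sparc held them at -35 and Vtn at -196. The RefSeq start of Sparc lies 3103 bases inside the gene as bounded in the table. Vtn alone of the 6 held the TEAD element, at -234, and Efemp1 alone held the AP-1 element, at -154. Over all 32851 promoters of this length the TATA box letters occurred in 12.4%, the SMAD box letters in 42.2%, the TEAD element in 12.6% and the AP-1 element in 6.75%. No motif was common to Thbs2, Tnc, Postn and Sparc, and these matches are letters in a window, not sites.

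Next, the levels of the genes were compared with each other per length, as FPKM, which scales counts by gene length and library total. Vtn had the highest level in every library, from 1312 to 2106 FPKM, followed by Fn1, from 73.1 to 145 FPKM, and Sparc, from 3 to 96.9 FPKM. Vtn made up 84.7% to 95.8% of the summed FPKM of the 8 genes in a library. The 6 genes other than Vtn and Fn1 made up 7.63% and 4.15% in LFG 1 and LFG 2, 0.298% in LFG 3, between 0.882% and 1.32% in REG and between 0.366% and 1.00% in hADMSCs-Exo. Below Sparc, the mean FPKM in REG was 3.34 ± 0.384 for Efemp1, 1.21 ± 0.274 for Postn, 0.516 ± 0.0985 for Thbs2, 0.409 ± 0.0490 for Tnc and 0.275 ± 0.0844 for Thbs1 (SD, n = 3). The neighbours Thbs2 and Tnc overlapped in range in REG, as did Tnc and Thbs1. In hADMSCs-Exo, Thbs1, Thbs2 and Tnc had means of 0.250, 0.240 and 0.188 FPKM with overlapping ranges. In LFG the ranges of Postn, Thbs1, Thbs2 and Tnc overlapped, with LFG 3 at the low end of each.

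Thbs1 encodes thrombospondin-1, a trimeric glycoprotein that can release TGF-β from its latent complex. Its level was 13.5 and 20.5 CPM in LFG 1 and LFG 2 and 0.983 in LFG 3. It was 2.28, 1.70 and 1.27 CPM in REG 1, 2 and 3 and 0.651, 1.63 and 2.39 CPM in hADMSCs-Exo 1, 2 and 3. REG and hADMSCs-Exo overlapped, and both lay below LFG 1 and LFG 2. The mean of REG was 10.3% and that of hADMSCs-Exo 9.15% of the mean of LFG 1 and LFG 2, the lowest percentage among the 8 genes for each group. LFG 3 and hADMSCs-Exo 1 each held only 11 counts of Thbs1.

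Thbs2, which encodes the related thrombospondin-2, an inhibitor of angiogenesis that also takes part in collagen fibril assembly, was at 13.8, 13.7 and 0.536 CPM in LFG 1, 2 and 3. The REG libraries had 4.50, 3.29 and 3.61 CPM and the hADMSCs-Exo libraries 0.829, 2.35 and 1.95 CPM. All 3 hADMSCs-Exo libraries were below all 3 REG libraries, and LFG 3, with 6 counts, was the lowest of the 9. Tnc, which encodes tenascin-C, a hexameric protein that appears in injured tissue, was at 11.3, 10.5 and 0.358 CPM in LFG. It was at 3.45, 2.97 and 3.61 CPM in REG and at 0.118, 2.53 and 1.83 CPM in hADMSCs-Exo. REG was narrow and hADMSCs-Exo again lay wholly below it, but hADMSCs-Exo 1 rested on 2 counts and LFG 3 on 4 counts.

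Postn encodes periostin, a TGF-β-inducible protein that binds integrins and supports collagen cross-linking. It was at 34.1, 32.4 and 2.5 CPM in LFG 1, 2 and 3. It was at 12.4, 12.6 and 8.17 CPM in REG and at 2.55, 8.79 and 4.60 CPM in hADMSCs-Exo. The latter groups overlapped through REG 3 and hADMSCs-Exo 2. Sparc, which encodes the collagen-binding protein osteonectin, was at 267, 177 and 14 CPM in LFG. REG had 75.9, 75.1 and 45.5 CPM and hADMSCs-Exo had 16.0, 37.4 and 20.7 CPM. Every hADMSCs-Exo library was below every REG library, and LFG 3 was the lowest of the 9. Against the mean of LFG 1 and LFG 2, Sparc stood at 29.5% in REG and 11.1% in hADMSCs-Exo.

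Efemp1 encodes fibulin-3, a glycoprotein associated with elastic fibers and basement membranes. Its level was 12.0, 12.8 and 5.54 CPM in LFG, 7.76, 7.41 and 6.31 CPM in REG and 3.02, 8.55 and 5.42 CPM in hADMSCs-Exo. REG lay within the range of hADMSCs-Exo, so these groups did not separate. Fn1 (fibronectin) was at 1008, 1561 and 1056 CPM in LFG, 1137, 994 and 1229 CPM in REG and 1183, 1459 and 1403 CPM in hADMSCs-Exo. All 3 groups overlapped, and LFG 3 lay inside the range of the other libraries. Vtn (vitronectin, which binds integrins) was at 1936, 2703 and 4565 CPM in LFG, 4201, 3790 and 3722 CPM in REG and 3241, 2960 and 4574 CPM in hADMSCs-Exo. Here LFG 1 and LFG 2 were the lowest of the 9 libraries and LFG 3 was among the highest, opposite in order to the matricellular genes.

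**Figure D1:**
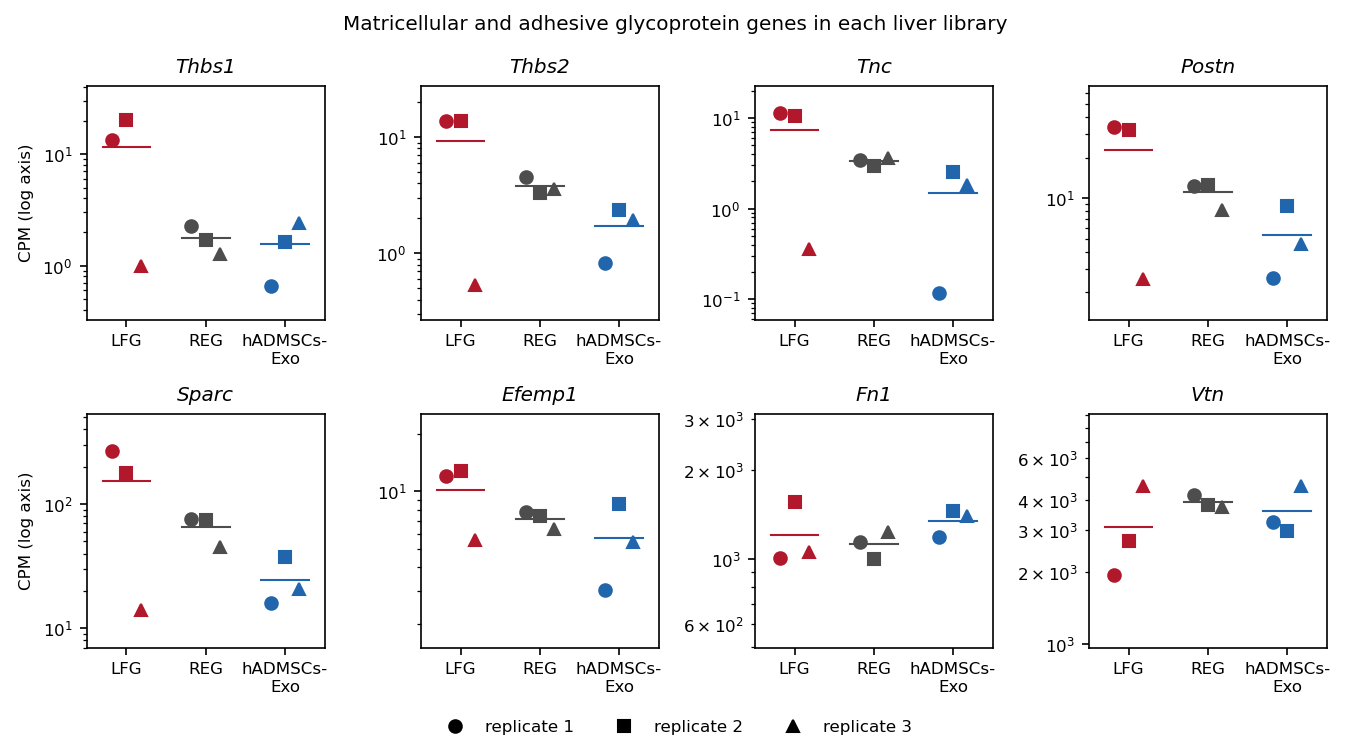
Level of each gene in CPM on a log axis, with one panel per gene and its own scale, points for the 9 libraries shaped by replicate number and a line at the mean of each group of 3. In the panels of Thbs1, Thbs2, Tnc, Postn and Sparc, LFG 1 and LFG 2 are the highest points and LFG 3 is among the lowest, while Fn1 stays between 994 and 1561 CPM.

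To ask what exosomes changed beyond PBS over the same 4 weeks, hADMSCs-Exo was compared with REG. Sparc, Thbs2, Tnc and Postn had lower means after exosomes, by 2.08-fold (Postn) to 2.65-fold (Sparc), whereas Fn1, Vtn, Efemp1 and Thbs1 differed by less. None of the 8 genes passed both thresholds, an adjusted p under 0.05 (edgeR's quasi-likelihood test, adjusted by Benjamini-Hochberg) and a log2 fold change of at least 1 in size, where 0.00811% of all genes tested did. At an unadjusted p under 0.05, 3 of the 8 were lower (Sparc, Thbs2 and Postn), against 4.69% of all genes, and none was higher, against 5.34%. With all 9 libraries in one fit none of the 3 kept an unadjusted p under 0.05 (1.29% of all genes were lower by that rule). Sparc had the same fold change there with an unadjusted p = 0.109 by edgeR and an SE of 0.79. That fit also takes in the spread of the LFG libraries. With single libraries left out, the count was between 1 (Sparc, without REG 1) and 4 (without hADMSCs-Exo 2). Sparc had a log2 fold change of -1.41 (SE 0.33, unadjusted p = 0.00268, adjusted p = 0.358 by edgeR). By DESeq2 the same gene was at -1.42 with an adjusted p of 0.00493 and was the only one of the 8 past both thresholds, which 0.276% of all genes passed downward. limma with voom called none of the 8 (0.0243% of all genes passed).

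The log2 fold changes of Thbs2 and Postn were -1.15 (SE 0.40, adjusted p = 0.430 by edgeR) and -1.06 (SE 0.41, adjusted p = 0.466 by edgeR). Tnc had -1.16 with the widest error of the 8 (SE 0.70, adjusted p = 0.602 by edgeR), and without hADMSCs-Exo 1 its value was -0.62. Without that library Postn moved to -0.72, Thbs2 to -0.82 and Sparc to -1.18. Without hADMSCs-Exo 2 the differences were larger, at -1.79 for Tnc, -1.63 for Postn, -1.84 for Sparc, -1.45 for Thbs2 and -0.77 for Efemp1 (unadjusted p = 0.0430 by edgeR). The hADMSCs-Exo libraries lay wholly below REG for Sparc, Thbs2 and Tnc, 3 of 8 genes, where 7.47% of all genes did so, and the exact two-sided permutation p of each was 0.100, the smallest that 3 against 3 libraries allow. Thbs1 was at -0.17 (SE 0.49, adjusted p = 0.928 by edgeR), and its sign turned without REG 1 (0.07) or without hADMSCs-Exo 1 (0.20). The values were 0.27 for Fn1 (SE 0.16), -0.12 for Vtn (SE 0.20) and -0.34 for Efemp1 (SE 0.35). Across the 8 genes the median was -0.70, beside 0.01 for all genes tested.

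Markers of matrix-producing cells, and of some other cell types, had lower sums in hADMSCs-Exo than in REG. The stellate cell markers summed to 106, 91.9 and 68.8 CPM in REG 1, 2 and 3 and to 32.0, 77.2 and 53.7 CPM in hADMSCs-Exo 1, 2 and 3, and all 7 had fitted fold changes below 0 (3 at an unadjusted p under 0.05), which 48.9% of all genes had. The myofibroblast and smooth muscle markers summed to 18, 24.8 and 10.7 CPM in REG and 2.55, 4.16 and 4.91 CPM in hADMSCs-Exo. Each of the 4 tested of 6 had an unadjusted p under 0.05, where 4.69% of all genes were lower by that rule. Cnn1 was at most 0.126 and Actg2 at most 0.189 CPM in hADMSCs-Exo, so they passed the filter on low counts through REG alone. Such genes can only come out lower, so this count is not read against that share. The portal fibroblast markers summed to between 13.8 and 18.2 CPM in REG and between 8.05 and 14.9 in hADMSCs-Exo. The cholangiocyte markers summed to 14.5, 16.1 and 16.8 CPM in REG and to 10.6, 10.7 and 10.1 CPM in hADMSCs-Exo, without overlap. Of the 5 markers 4 were below and 1 above 0. Only Sox9 did not overlap by itself, at 6.10, 8.46 and 11.2 CPM in REG and 4.38, 5.84 and 3.97 CPM in hADMSCs-Exo. The hepatocyte sum, most of which is Alb (albumin), was between 156697 and 164368 CPM in REG and between 109773 and 130085 CPM in hADMSCs-Exo, while of its 5 markers 3 were below and 2 above 0 with a median of -0.19, and Hnf4a was higher in all 3 hADMSCs-Exo libraries (619, 768 and 725 CPM) than in REG (494, 497 and 577 CPM). All 6 endothelial markers had fold changes below 0 (median -0.54, 1 at an unadjusted p under 0.05), and their sums overlapped, whereas macrophage markers had a median of 0.02. Mesothelium markers went the other way, with 2 of 3 tested above 0 and a median of 0.57. Their sums were 2.28, 4.39 and 4.99 CPM in REG and 4.08, 4.22 and 6.61 CPM in hADMSCs-Exo. Of the 3 platelet markers tested 2 were below and 1 above 0, with a median of -0.24. No gene of these lists passed the adjusted threshold, and their part in the differences of Sparc, Thbs2, Tnc and Postn was not tested. In whole liver, fewer cells of a type and less RNA per cell cannot be told apart.

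**Figure D2:**
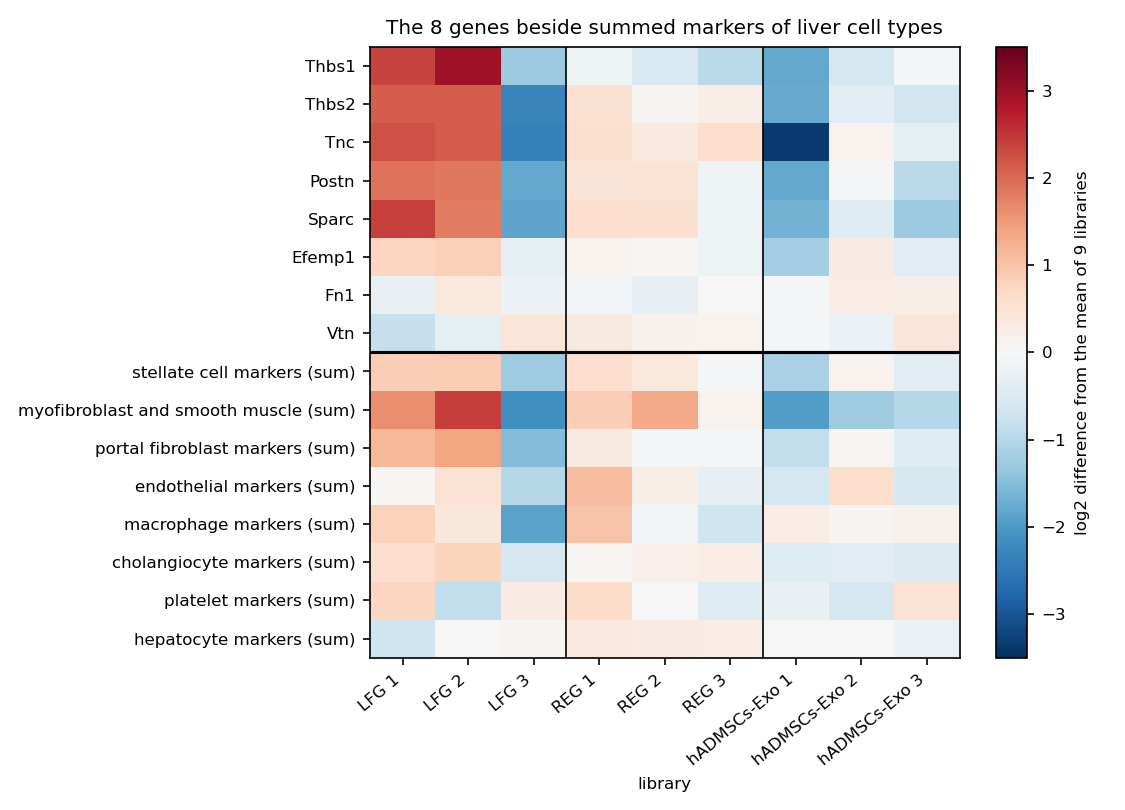
Log2 CPM after subtraction of the 9-library mean, in color, for the 8 genes (above the line) and for the log2 of summed CPM of markers of 8 cell types (below), with libraries in columns. LFG 3 and hADMSCs-Exo 1 are low in Thbs2, Tnc, Postn and Sparc and also in the stellate and myofibroblast sums, where they have 29.8 and 32.0 CPM and 2.23 and 2.55 CPM.

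For the change from the end of CCl4 to 4 weeks later, REG was compared with LFG. Thbs1, with a log2 fold change of -2.72 (SE 0.93), had the largest difference of the 8, and Sparc, Thbs2, Tnc and Postn lay between -1.29 and -1.04. These values depended on single LFG libraries. Without LFG 1, Sparc was at -0.52, Postn at -0.64, Tnc at -0.69 and Thbs2 at -0.89, and without LFG 2, Thbs1 was at -2.05. With the replicate number as a block, Sparc, Thbs2, Tnc and Postn lay between -0.69 and -0.51 and Thbs1 was at -2.11. With all 3 LFG libraries no gene passed the thresholds by edgeR (0% of all genes did), and Thbs1 alone had an unadjusted p under 0.05 (unadjusted p = 0.0223, adjusted p = 0.392), where 6.70% of all genes were lower by that rule. By that rule Thbs1 was not called without LFG 2 or without any 1 of the REG libraries. DESeq2 called none of the 8 (1.91% of all genes passed), whereas limma with voom and quality weights, which weighs down libraries that deviate, called Thbs1, Thbs2, Tnc and Postn lower, 4 of 8 against 6.74% of all genes. None of the 8 had REG wholly below LFG, where 10.1% of all genes did.

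Without LFG 3, 5 of the 8 genes fell from LFG to REG past both thresholds in edgeR's quasi-likelihood test, against 6.94% of all genes. LFG was then represented by 2 libraries, and the one left out was low in these same genes, which favours such calls by construction. The log2 fold changes were -3.23 for Thbs1 (adjusted p = 0.0104), -1.81 for Thbs2 (0.0125), -1.71 for Sparc (0.0159), -1.66 for Tnc (0.0145) and -1.54 for Postn (0.0145) by edgeR. Efemp1 was at -0.75 with an adjusted p of 0.0467 by edgeR, under the limit on fold change. Fn1 was at -0.09 with all libraries (SE 0.28) and -0.15 without LFG 3, and it was positive without LFG 2 (0.13) or REG 2 (0.01). Vtn was at 0.36 with all libraries (SE 0.38) and 0.80 without LFG 3 (adjusted p = 0.0823 by edgeR). The median of the 8 genes was -1.09 with and -1.60 without LFG 3, beside -0.07 and -0.01 for all genes. In the same comparison without LFG 3, 6 of 7 stellate cell markers lay wholly below LFG 1 and LFG 2, where 29.8% of all genes did, and Hgf was past both thresholds. Epcam and Krt7 of the cholangiocyte list (4 of 5 below 0) and Wt1 of the mesothelium list (5 of 5 below 0) were also past them. So were Eln and Cd34 of the portal fibroblast list, while the other 3 tested of that list were above 0 and its median was 0.22. The median log2 fold change was -0.70 for the stellate cell markers and -1.03 for the 5 myofibroblast and smooth muscle markers tested, and the part of these markers in the change of the 5 genes was not tested.

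The comparison of hADMSCs-Exo with LFG uses the same LFG libraries as the previous one, so the values are set side by side and not counted as separate evidence. Sparc, Thbs1, Thbs2, Tnc and Postn had log2 fold changes of -2.65 (SE 0.94), -2.93 (SE 1.01), -2.47 (SE 1.03), -2.33 (SE 1.26) and -2.13 (SE 0.91). None of the 8 passed the thresholds by edgeR, nor did any other gene (0%), and neither DESeq2 (0.480% of all genes passed) nor limma with voom (0.00801%) called any of the 8. At an unadjusted p under 0.05, Sparc, Thbs1 and Thbs2 were lower, 3 of 8 against 3.68% of all genes, but with the replicate number as a block none was, against 2.96%, where Sparc had -2.0 (unadjusted p = 0.114) and Thbs1 -2.57 (unadjusted p = 0.125). The count was also 0 without LFG 2 or hADMSCs-Exo 1, and 1 without LFG 1, hADMSCs-Exo 2 or hADMSCs-Exo 3. Sparc was at -1.96 without LFG 1, Thbs1 at -2.25 without LFG 2, and Tnc at -1.75 without hADMSCs-Exo 1 and -2.93 without hADMSCs-Exo 2. No gene had hADMSCs-Exo wholly below LFG, where 5.94% of all genes did.

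Without LFG 3, Thbs1, Sparc, Thbs2 and Postn fell past both thresholds by edgeR, 4 of 8 against 4.50% of all genes. Here too the library left out was low in these same genes, which favours such calls by construction. The log2 fold changes were -3.43 for Thbs1 (adjusted p = 0.0198), -3.16 for Sparc (0.0158), -2.99 for Thbs2 (0.0185) and -2.63 for Postn (0.0249) by edgeR. Tnc missed the threshold at -2.85 (adjusted p = 0.0621 by edgeR), as did Efemp1 at -1.12 (0.116). Fn1 was at 0.15 with all libraries (SE 0.29) and 0.08 without LFG 3, and Vtn was at 0.22 (SE 0.41) and 0.65. Vtn was the only one of the 8 whose 3 hADMSCs-Exo libraries lay wholly above LFG 1 and LFG 2, where 23.2% of all genes did so, and 6 lay wholly below, where 25.7% did. Markers moved in this comparison too. Without LFG 3, Des, Hgf and Pdgfrb of the 7 stellate cell markers (median -1.40, all 7 below 0) and Acta2, Cnn1, Lmod1 and Myh11 of the 5 myofibroblast and smooth muscle markers tested (median -3.78) were past both thresholds downward. So were Epcam of the cholangiocyte list (5 of 5 below 0), Eln of the portal fibroblast list (2 of 4 below 0) and Adgre1 of the macrophage list (4 of 6 below 0, with 1 of the others higher at an unadjusted p under 0.05). The part of these markers in the change of the 4 genes was not tested. Among them, Cnn1 was at most 0.126 and Lmod1 at most 0.315 CPM in hADMSCs-Exo. These passed the filter on low counts through LFG alone and could only come out lower.

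**Figure D3:**
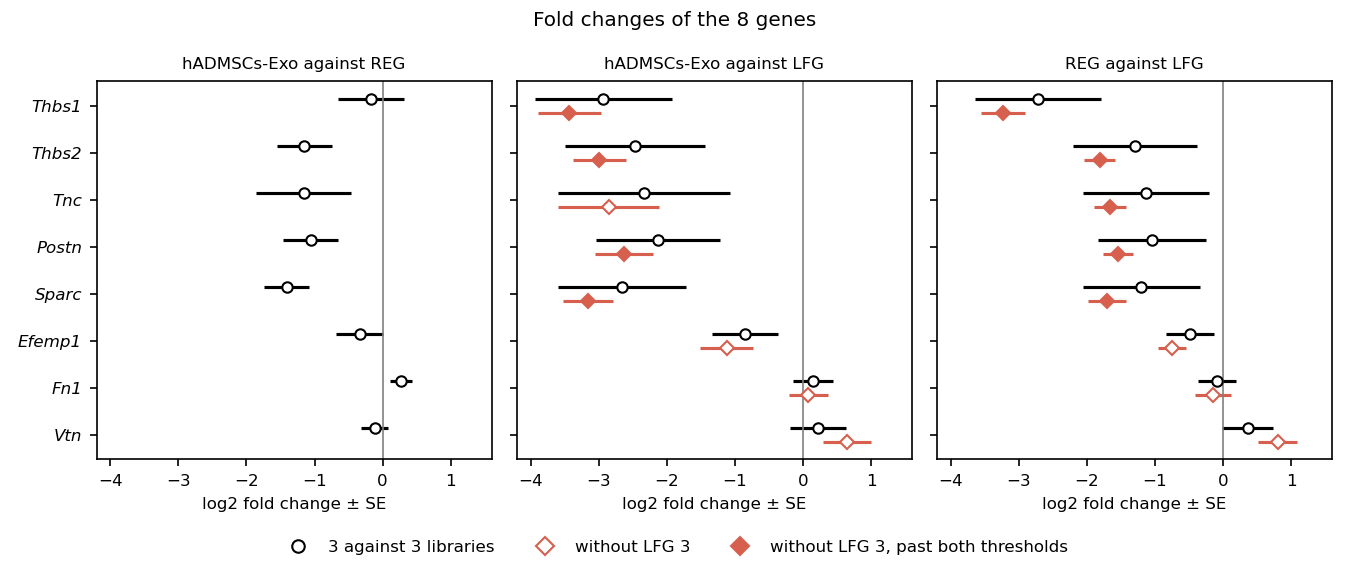
Log2 fold change with its standard error for the 8 genes in the 3 comparisons by edgeR, with all libraries (circles) and without LFG 3 (diamonds, filled where past both thresholds). The 5 matricellular genes Thbs1, Thbs2, Tnc, Postn and Sparc lie left of 0 in each panel while Fn1 and Vtn lie within 0.80 of it. The filled symbols are 4 genes in hADMSCs-Exo against LFG and 5 in REG against LFG.

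The 8 genes were then described by the likeness of their profiles, as the root mean square difference of log2 CPM over the 9 libraries after each gene was centred on its mean, where all genes share libraries and normalization. The closest pair was Postn and Sparc, at 0.25, followed by Thbs2 and Postn at 0.31 and Thbs2 and Sparc at 0.36. The farthest pair was Tnc and Vtn at 1.97. Fn1 and Vtn were 0.45 apart, but the measure is not scaled to the span of a gene. Genes that vary little thus come out close whatever their order over the libraries, so this value does not show a shared profile. Log2 CPM spanned 5.61 for Tnc and 4.75 for Thbs1 over the 9 libraries, but only 0.65 for Fn1 and 1.24 for Vtn. For Thbs2, Postn and Sparc the spans of 4.42, 3.71 and 4.24 were those within LFG, with LFG 3 at the low end. Likeness was not computed without LFG 3, so it rests in part on that library.

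Among the 12760 genes with enough counts over the 9 libraries, those most like Postn were Adamts2 (0.15), a procollagen N-proteinase, Ednrb (0.20), an endothelin receptor, and Col6a2 (0.23), a chain of collagen VI. For Sparc they were Adamts2 (0.20), Postn (0.25) and Col4a2 (0.25), a basement membrane collagen chain. For Thbs2 they were Lgi2 (0.24), S1pr3 (0.24), a sphingosine-1-phosphate receptor, and Adamts2 (0.28). Less close were the nearest genes of Tnc, namely Itga8 (0.55), an integrin subunit that pairs into a tenascin-C and fibronectin receptor, Thbs2 (0.60) and Robo2 (0.62). Thbs1 had Adamtsl2 (0.50), Tmem119 (0.51) and Mrc2 (0.52), a collagen uptake receptor, as its nearest genes. Efemp1 had Amotl1 (0.17), Tgfb1i1 (0.18) and Cep72 (0.19).

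Ratios within a library, chosen after the values had been seen, are free of the scaling between libraries. The FPKM ratio of Sparc to Fn1 was 0.817, 0.350 and 0.0410 in LFG 1, 2 and 3. It was 0.206, 0.233 and 0.114 in REG and 0.0417, 0.0791 and 0.0456 in hADMSCs-Exo, so every hADMSCs-Exo library lay below every REG library. The ratio of Thbs1 to Thbs2 was 1.13, 1.73 and 2.11 in LFG, 0.584, 0.596 and 0.407 in REG and 0.906, 0.798 and 1.41 in hADMSCs-Exo. REG had less Thbs1 than Thbs2 per length in all 3 libraries and lay below every library of the other groups, and LFG 3, low in both genes, was on the side of LFG 1 and LFG 2 in this ratio. It rested on 11 counts of Thbs1 and 6 of Thbs2 there. The ratio of Postn to Sparc kept within 0.0556 to 0.102 over all 9 libraries.

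**Figure D4:**
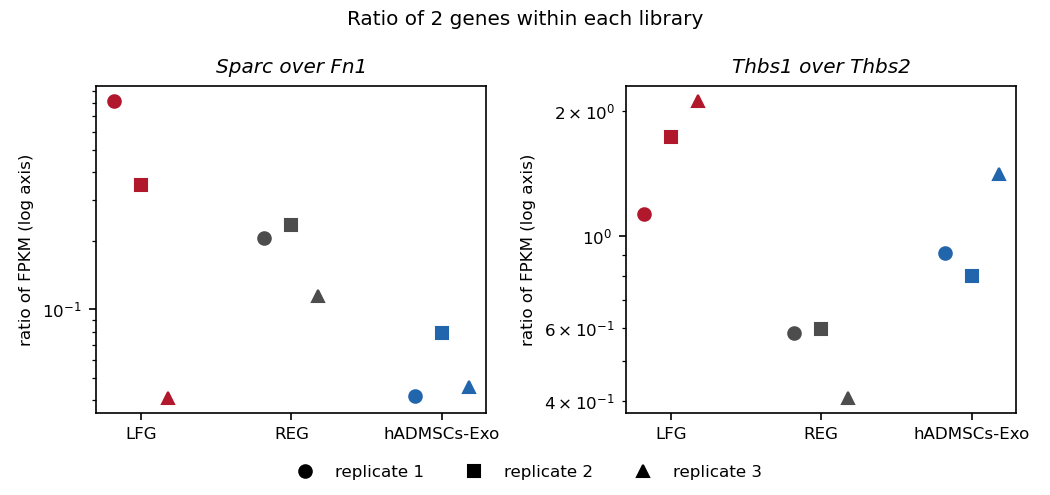
FPKM ratio of Sparc to Fn1 (left) and of Thbs1 to Thbs2 (right) in each library, on log axes, with points shaped by replicate number. REG lies above hADMSCs-Exo on the left (0.114 to 0.233 against 0.0417 to 0.0791) and below it on the right (0.407 to 0.596 against 0.798 to 1.41).

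Related matricellular proteins and fibulins that were not among the 8 formed a list of 26 genes, of which 16 were tested between hADMSCs-Exo and REG. No gene of it passed the adjusted threshold by edgeR. At an unadjusted p under 0.05, 6 were lower, against 4.69% of all genes, and none was higher, against 5.34%, and the median log2 fold change was -0.34 beside 0.01 for all genes. The smallest p were those of Sparcl1, a SPARC-like glycoprotein (-1.78, SE 0.37), Fbln1, which encodes fibulin-1 (-1.68, SE 0.39), and Efemp2, which encodes fibulin-4 (-1.07, SE 0.32). Sparcl1 was at 20, 18.9 and 8.70 CPM in REG and 2.96, 5 and 5.92 CPM in hADMSCs-Exo, without overlap, and at 58.8, 47.6 and 1.43 CPM in LFG. Against LFG with all libraries, the list had 4 of 17 genes lower at an unadjusted p under 0.05 in hADMSCs-Exo, against 3.68% of all genes, led by Fstl1 (-2.83), Sparcl1 (-2.98) and Ccn2, which encodes connective tissue growth factor (-1.36). In REG, by the same rule, 2 of 18 were lower, against 6.70%, Hmcn1 (-1.45) and Ccn2 (-1.45), and the next was Spp1, which encodes osteopontin (-1.0, unadjusted p = 0.0717). Without LFG 3, 7 of 19 tested passed both thresholds downward in hADMSCs-Exo (Ccn2, Efemp2, Fbln1, Fbln2, Fbln5, Fstl1 and Sparcl1), against 4.50% of all genes, and 5 of 20 in REG (Ccn2, Fbln2, Fstl1, Sparcl1 and Spp1), against 6.94%. Spock1 and Spock3 had no count in any library.

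Receptors for these proteins (integrin subunits, syndecans, Cd36, Cd47 and others) were mixed in direction between hADMSCs-Exo and REG. Of 18 tested between hADMSCs-Exo and REG, 7 had lower and 11 higher fitted values, with a median of 0.09, and none passed the adjusted threshold by edgeR. Itga8 was at 8.19, 6.32 and 4.62 CPM in REG and 0.829, 3.85 and 1.83 CPM in hADMSCs-Exo (-1.55, SE 0.50, unadjusted p = 0.0142 by edgeR). Itga5, the fibronectin receptor subunit, had 0.54 (SE 0.19, unadjusted p = 0.0221 by edgeR), and Sdc4, a syndecan that binds fibronectin, had 0.51 (SE 0.19, unadjusted p = 0.0263 by edgeR). Against LFG with all libraries, the smallest p were those of Ddr2 (-1.71), Itga8 (-2.47) and Itgav (-0.64) in hADMSCs-Exo, and those of Itgav (-0.96), Sdc4 (-0.82) and Itga5 (-0.46) in REG. Without LFG 3, Ddr2, Itga8 and Tlr4, 3 of 19 tested, passed both thresholds downward in hADMSCs-Exo, against 4.50% of all genes, and Itga8, Itgav and Plaur, also 3 of 19, did so in REG, against 6.94%.

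Regulators and processing enzymes (the TGF-β pathway, MRTF, YAP and TEAD factors, proteases and the cross-linking enzyme Lox) were the third list. Of 18 tested between hADMSCs-Exo and REG, 6 had lower and 12 higher fitted values, with a median of 0.23, and none passed the adjusted threshold by edgeR. Bmp1, a protease that trims procollagen, had 0.49 (SE 0.15), Mrtfa, a cofactor of serum response factor, had 0.60 (SE 0.23), and Tgfb3 had -0.82 (SE 0.40). Bmp1 and Mrtfa, 2 of 18 and both higher, were the only ones of this list with an unadjusted p under 0.05 in this comparison, where 5.34% of all genes were higher and 4.69% lower by that rule. Against LFG with all libraries, 3 of 18 regulators were lower at an unadjusted p under 0.05 in hADMSCs-Exo, against 3.68% of all genes, among them Tgfb3 (-2.02) and Lox (-3.01). In REG, by the same rule, 5 of 18 were lower, against 6.70%, among them Mrtfa (-0.89) and Tgfbr1 (-0.79). Without LFG 3, 3 of 19 passed both thresholds downward in hADMSCs-Exo (Lox, Tead1 and Tgfb3), against 4.50% of all genes, and 7 of 19 in REG, against 6.94%, among them Adamts1, Lox, Mrtfa, Tead1, Tgfb3 and Tgfbr1.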

How the data were processed

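RNA from mouse liver was sequenced in 12 samples, of which 9 (LFG, REG and hADMSCs-Exo) were used, while the 3 hADMSCs samples, from mice given the cells, were not analysed here. Groups and replicate numbers were taken from the sample titles. The columns of the hADMSCs-Exo group carry a shorter name ending in E, which was matched to the titles in Exo.

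The authors deposited raw read counts per gene, not normalized, beside FPKM. The deposited FPKM could be recomputed from counts, gene lengths and library totals (largest relative difference 9.19e-07) and served only to compare genes per length. The submitters' processing notes name cutadapt 1.15, HISAT2 2.0.5, HTSeq 0.9.1 and DESeq 1.30.0 and the build GRCm38, with no role given. The setting for strand is not given in the sources used here. Columns of gene position and length were used as deposited by the authors.

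Counts were tested by the quasi-likelihood test of edgeR 4.0.16 in R 4.3.3, two-sided, with TMM normalization, filterByExpr (minimum count 10) and only the 6 libraries compared in each fit. The filter left 12337 genes (hADMSCs-Exo against REG), 12489 (hADMSCs-Exo against LFG) and 12517 (REG against LFG), all 8 members among them each time. P-values were adjusted over all genes tested by the Benjamini-Hochberg method, and a call needed an adjusted p under 0.05 and a log2 fold change of 1 or more in size. The standard error was the absolute log2 fold change divided by the square root of the F statistic. CPM was scaled by TMM over the 9 libraries, and log2 CPM used a prior count of 2. Exact permutation tests of the difference in mean log2 CPM used scipy 1.17.1. Python 3.11.15 with pandas 2.3.3 handled the tables and matplotlib 3.10.9 the plots.

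The 8 members and all lists were chosen with earlier results of these data known, so no test over a list was run. All 8 members are named in every comparison, with up to 3 genes of smallest p per list and comparison and, for members whose log2 CPM spanned over 2, the 3 genes of most similar profile. A gene of the third list is not reported here. Of the hepatocyte markers 5 of 6 matched the table. The marker lists for mesothelium, endothelium, macrophages, cholangiocytes and platelets gave sums of 2.28 to 14.2, 49.1 to 206, 93.8 to 688, 9.48 to 24.4 and 3.19 to 9.69 CPM over the 9 libraries, with Gp1bb at 0 throughout.

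Replicates are separate samples by their labels, and p-values measure the spread between these samples. Replicate pairs differed by more than sampling noise (chi-square per gene of at least 27). The value was 299 for LFG 1 and LFG 3 and 228 for LFG 2 and LFG 3. It was 72.4 for LFG 1 and LFG 2 and at most 87.9 within REG and hADMSCs-Exo. Deviations from the group means correlated between same-numbered libraries by 0.101, 0.308 and 0.180 for hADMSCs-Exo and LFG, which counted as pairing, by 0.159, 0.00938 and 0.0336 for hADMSCs-Exo and REG, and by 0.415, -0.202 and 0.305 for REG and LFG. Alternatives were RLE size factors, DESeq2 1.42.0, limma 3.58.1 with voom and quality weights, no filter, a stricter filter, all 9 libraries in one fit, the replicate block, no limit on fold change, unadjusted p, and the omission of single libraries. Library totals in place of TMM were chosen later, after seeing the data.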

Additional observations from a re-analysis of the deposited data

How the results depend on the processing

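With 3 libraries per group the spread between libraries limits the precision, and some values of Thbs1, Thbs2 and Tnc rest on few counts. Of 331 alternative values of single members, 311 kept their direction and side of the thresholds, 14 passed thresholds they had missed and 6 changed sign. No member was past the thresholds in the reported fits, so no such call could be lost. The calls at an unadjusted p under 0.05 in hADMSCs-Exo against REG were 0 with all 9 libraries in one fit. The sign changes were those of Thbs1 in hADMSCs-Exo against REG without REG 1 (0.07) and without hADMSCs-Exo 1 (0.20), of Fn1 (-0.05 with voom) and Vtn (-0.02 without LFG 1) in hADMSCs-Exo against LFG, and of Fn1 in REG against LFG without LFG 2 (0.13) and without REG 2 (0.01). None of these was past a threshold, and the cause was not tested. Over all libraries left out in turn these values ranged from -0.62 to 0.20 (Thbs1), from -0.02 to 0.65 (Vtn) and from -0.21 to 0.13 (Fn1 in REG against LFG).

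The number of members past the thresholds, 0 in each comparison, was 1 with DESeq2 for hADMSCs-Exo against REG and 4 with voom and quality weights for REG against LFG. With an unadjusted p it was 3 and 3 (with and without the limit on fold change) for hADMSCs-Exo against REG, 3 and 3 for hADMSCs-Exo against LFG and 1 and 1 for REG against LFG. Leaving out each library in turn gave 0 to 0, 0 to 4 and 0 to 5, the upper values being those without LFG 3. The median log2 fold change of the members then ranged from -1.11 to -0.34 for hADMSCs-Exo against REG (-0.34 without hADMSCs-Exo 1 and -1.11 without hADMSCs-Exo 2), from -2.74 to -1.76 for hADMSCs-Exo against LFG and from -1.60 to -0.58 for REG against LFG (-0.58 without LFG 1).

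With the replicate number as a block the medians were -0.80, -1.81 and -0.53 and the counts were 0, 0 and 0. Among the members, with all 6 libraries of a comparison, the block ended the unadjusted calls in hADMSCs-Exo against LFG and no others. It was not run without LFG 3 or counted for the other gene lists. At least 10 counts in every library kept 7, 6 and 6 members, with medians of -0.34, -1.53 and -0.80, fewer genes being the reason by construction. Library totals in place of TMM moved the median of all genes to 0.07, -0.18 and -0.27 and that of the members to -0.64, -2.52 and -1.47.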
